A study of Homo sapiens with 12 samples.

Results

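The nuclear-encoded subunits of oxidative phosphorylation were taken as the protein-coding genes of the 786-O table whose symbols begin with NDUFA, NDUFB, NDUFC, NDUFS, NDUFV, UQCR, COX4 to COX8, ATP5F1, ATP5M or ATP5P, together with SDHA, SDHB, SDHC, SDHD and CYC1, and without the NDUFAF assembly factors. This gave 90 genes of 58735 in the 786-O table: 38 of complex I, 4 of complex II, 10 of complex III, 19 of complex IV and 19 of complex V. By symbol, 71 of them stood in the 5637 table of 29890 genes, covering complexes I to IV, and complex V was not analysed here in 5637. Expression had been measured by RNA-seq of total RNA in 2 human cancer lines grown in RPMI-1640 with serum: 786-O, from a clear cell renal carcinoma, and 5637, from a bladder carcinoma. Each line has 3 libraries in which a short hairpin RNA silenced CBX7 (shCBX7) and 3 with a control hairpin (sh control), and no further treatment was labelled. CBX7 is a chromobox subunit of Polycomb repressive complex 1, and the series asks what its loss changes in each line. How many hairpins, infections or cultures lay behind the libraries is not given in the sources used here, so p-values measure how these libraries vary, which may be technical variation only.

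Oxidative phosphorylation moves electrons from NADH and succinate through complexes I and II to ubiquinone, on through complex III and cytochrome c to complex IV, and returns the pumped protons through complex V, the ATP synthase. Complexes I, III, IV and V are built from subunits of both the nuclear and the mitochondrial genome, while complex II is wholly nuclear-encoded. Clear cell renal carcinomas are known for low respiratory activity beside strong glycolysis.

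Reads recovered from the FPKM steps (FPKM scales fragments by gene length and a total per library) came to 16384151 to 18868874 per library in 786-O and to 17744835 to 29198095 in 5637. The scaling total of 786-O was not the plain sum of these reads. It was 16693519 in sh control 1 and 18331569 in sh control 2, beside 16961808 and 18006814 recovered reads. CBX7 itself stood at 1.63, 1.75 and 1.49 FPKM in the 786-O control libraries and at 1.01, 0.892 and 1.07 with shCBX7, and at 2.19, 2.17 and 2.42 against 1.86, 1.80 and 1.97 in 5637. All 3 shCBX7 libraries lay below all 3 controls in both lines, at 61% and 83.3% of the control mean (two-sided exact permutation p = 0.1 each, the smallest that 3 against 3 allows; log2 change -0.40 and -0.18). Of the renal markers, the transcription factor gene PAX8 lay at 30.1 to 39.6 FPKM in 786-O and at 0.0795 to 0.175 in 5637, and VCAM1 at 90.1 to 118 and at 0. The 2 tables were normalized separately. Others on that list did not follow PAX8: CA9 lay at 0.347 to 0.907 FPKM in 786-O and at 1.71 to 2.79 in 5637, NDUFA4L2 at 0 to 0.0389 and 0.186 to 0.306, and LRP2 at 0 to 0.00671 and 0.14 to 0.183. The basal keratin gene KRT5 was listed at 0 in every 786-O library and at 187 to 267 FPKM in 5637. Of the other basal markers, KRT17, KRT6A, KRT14 and TP63 followed KRT5. CD44 did not, at 114.1 to 128.9 FPKM in 786-O and 97.15 to 108.9 in 5637. The urothelial UPK2 and UPK3A did not exceed 0.611 and 0.0625 FPKM in 5637, while GATA3 and PPARG reached 12.05 and 46.6 there. Of the 5 leukocyte markers, the defining PTPRC and CD3E stood at 0 in 786-O, and in 5637 PTPRC did not exceed 0.0121 FPKM and CD3E stood at 0. The other members were present: LAPTM5 lay at 7.82 to 19.6 FPKM in 786-O and 37.3 to 44.5 in 5637, CORO1A at 0.668 to 1.07 and 11.9 to 14.9, and CD14 at 0.503 to 1.05 and 1.36 to 1.73.

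Promoters are shown for 5 members whose results are described further on: SDHD, UQCRC1 and ATP5F1A, which fell in 786-O, NDUFS1, which moved in opposite directions in the 2 lines, and NDUFA8, which rose in 5637. They were chosen with the values known. Each runs 5′ to 3′ on the gene's strand from 250 bases before the RefSeq start site through 30 bases from it (RefSeq, GRCh38.p14). Capitals mark matches to the binding letters of 3 regulators long tied to respiratory genes, searched on both strands: GCGCANGCG for NRF1, CCGGAAG for ETS factors such as GABPA, and AAGATGGCG for YY1. Matches of NRF1 on opposite strands overlap in SDHD and NDUFA8.
SDHD, chr11:112086623-112086902, plus strand: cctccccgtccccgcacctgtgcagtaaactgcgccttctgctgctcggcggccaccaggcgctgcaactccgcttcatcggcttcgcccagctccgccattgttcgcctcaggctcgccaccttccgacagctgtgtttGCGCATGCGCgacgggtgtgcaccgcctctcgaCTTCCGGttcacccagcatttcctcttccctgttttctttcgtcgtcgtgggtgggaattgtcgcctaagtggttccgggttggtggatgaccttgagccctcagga
UQCRC1, chr3:48609617-48609896, minus strand: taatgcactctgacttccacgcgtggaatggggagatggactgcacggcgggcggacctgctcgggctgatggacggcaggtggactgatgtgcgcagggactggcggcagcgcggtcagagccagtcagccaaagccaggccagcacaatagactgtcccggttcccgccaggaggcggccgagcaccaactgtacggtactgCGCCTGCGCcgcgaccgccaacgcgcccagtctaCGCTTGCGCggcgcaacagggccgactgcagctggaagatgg
ATP5F1A, chr18:46104198-46104477, minus strand: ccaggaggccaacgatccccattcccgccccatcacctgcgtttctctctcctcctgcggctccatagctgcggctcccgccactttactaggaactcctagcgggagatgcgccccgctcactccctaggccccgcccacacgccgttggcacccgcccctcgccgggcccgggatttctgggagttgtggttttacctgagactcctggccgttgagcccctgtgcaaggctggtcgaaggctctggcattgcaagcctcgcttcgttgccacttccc
NDUFS1, chr2:206159415-206159694, minus strand: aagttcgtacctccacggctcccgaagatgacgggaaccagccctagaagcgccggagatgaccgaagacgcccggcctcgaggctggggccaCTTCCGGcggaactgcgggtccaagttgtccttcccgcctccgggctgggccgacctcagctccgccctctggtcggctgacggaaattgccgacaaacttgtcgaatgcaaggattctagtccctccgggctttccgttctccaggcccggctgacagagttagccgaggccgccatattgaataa
NDUFA8, chr9:122159750-122160029, minus strand: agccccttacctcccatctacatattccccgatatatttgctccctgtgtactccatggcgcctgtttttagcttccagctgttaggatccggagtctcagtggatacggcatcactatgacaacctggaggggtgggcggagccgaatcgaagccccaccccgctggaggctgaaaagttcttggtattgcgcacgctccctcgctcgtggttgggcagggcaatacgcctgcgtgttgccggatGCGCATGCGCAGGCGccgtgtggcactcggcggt

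SDHD carried NRF1 matches that start 110 and 109 bases before the start site and an ETS match 77 bases before it. UQCRC1 held NRF1 matches 46 and 12 bases before the start, and a YY1 match that begins 23 bases after it and runs past the stretch shown. NDUFA8 had 3 overlapping NRF1 matches around the start, NDUFS1 an ETS match 157 bases before it, and ATP5F1A none of these letters.

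Promoters were found for 71 of the 90 members, and the full windows, 250 bases before the start and 50 from it on, were searched. NRF1 letters stood in 23 of the 71 (32.4%), against 11.02% of 15843 protein-coding promoters and 8.05% of 27305 promoters of all genes. ETS letters stood in 20 (28.2%) against 14.2% and 10.7%, and YY1 letters in 8 (11.3%) against 2.74% and 1.85%. At least 1 of the 3 was present in 41 members (57.8%), in 24.7% of protein-coding promoters and in 18.3% of all. Among members that fell in 786-O it was 23 of 36 (63.9%), and among members tested there but not called 16 of 27 (59.3%). By motif, NRF1 letters stood in 11 of the 36 falling members (30.6%) and 11 of the 27 not called (40.7%). ETS letters stood in 12 (33.3%) and 8 (29.6%), and YY1 letters in 2 (5.56%) and 5 (18.5%). These counts are small, and a difference between falling and uncalled members was not tested. A match is a description of letters and not evidence of binding.

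Before silencing, the members ranked high in both lines. The median control level of the members tested was 45.1 FPKM in 786-O, against 4.82 for all genes with at least 0.5 FPKM, and 19.6 against 6.58 in 5637. Given the separate normalization, levels are ordered within a line only. In 786-O the highest was NDUFS5, an accessory subunit of complex I, at 526 ± 2.88 FPKM (mean ± SD, n = 3). ATP5F1B, the catalytic beta subunit of ATP synthase, followed at 414 ± 21.1, and NDUFB7, a complex I subunit facing the intermembrane space, at 359.6 ± 43.3. COX8A, a small complex IV subunit, stood at 288 ± 47.8 and CYC1, cytochrome c1 of complex III, at 242 ± 27.6, and the libraries of each neighbouring pair below NDUFS5 overlapped. In 5637 COX8A (131 ± 9.69) and NDUFS5 (129 ± 2.95) led and did not differ beyond their spread. COX6B1 (91 ± 9.33), COX5A (87.8 ± 5.91) and UQCRH (77.1 ± 2.55) came next, the first pair again overlapping.

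With shCBX7, subunits of all 5 complexes were lower in 786-O, while in 5637 most had no called change. In 786-O 44 of the 78 tested members fell and 2 rose (limma on log2(FPKM + 1), mean FPKM of at least 0.5, Benjamini-Hochberg adjusted p below 0.05 over all tested genes). Of all 13220 genes tested there, 26.2% were called lower and 24.7% higher. The members' median log2 change was -0.25, beside -0.011 over all genes tested, and 67 of the 78 values lay below 0. In 5637, 6 of 61 tested members fell and 7 rose, shares under those of all 12689 genes tested, of which 20.2% were called lower and 24.4% higher. The median there was 0.014, beside 0.0095 over all genes, and 28 of 61 values lay below 0. Leaving out 1 library gave 37 to 43 falling members in 786-O. The 5637 counts were less stable: 4 members rose without sh control 1 or without shCBX7 3, while 2 fell without sh control 1 and 3 without shCBX7 2. These are bulk libraries, in which less RNA per cell and fewer expressing cells cannot be told apart.

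**Figure D1:**
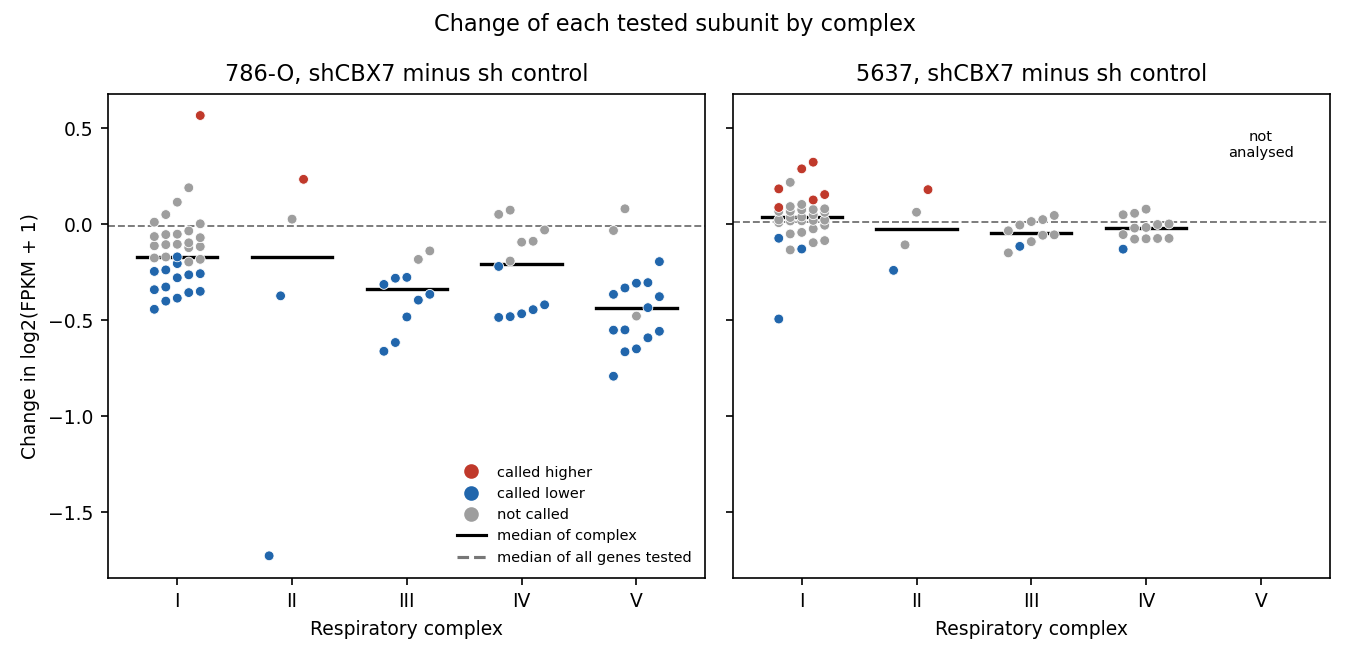
Change in log2(FPKM + 1), shCBX7 minus sh control, of each tested subunit by respiratory complex in 786-O (left) and 5637 (right), with 3 libraries per arm. Points are subunits coloured by call, bars are complex medians and dashed lines the median of all genes tested. In 786-O the medians run from -0.17 (complexes I and II) to -0.43 (complex V), whereas in 5637 they lie between -0.045 and 0.037.

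By complex, the falls in 786-O took in 14 of 17 tested subunits of complex V, 8 of 10 of complex III, 6 of 12 of complex IV, 2 of 4 of complex II and 14 of 35 of complex I. Medians were -0.43, -0.34, -0.21, -0.17 and -0.17 in that order. SDHC of complex II rose. No subunit of complexes III, IV or V was called higher by limma (0 also at an unadjusted p below 0.05, and 0 with voom on the recovered reads). In complex I 40% were called lower, against 26.2% of all genes tested. That count rested on single libraries: it was 8 of 35 without sh control 3, without shCBX7 1 or without shCBX7 2. In these fits 2922, 3016 and 2969 of all 13220 genes tested were called lower. Complex I then stood near the share of all genes.

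Summed over its listed subunits, complex V went from 1286.9 ± 49.7 to 920.4 ± 25.3 FPKM in 786-O (mean ± SD, n = 3), or 71.5% of the control mean. Complex III went to 72.9%, complex II to 80.2%, complex IV to 84.2% and complex I to 85.9%. Sums follow the subunits with the largest FPKM changes: ATP5F1B alone went from 414 to 239 FPKM and SDHD from 21.8 to 5.89. All 90 members together came to 5707 ± 230.4 FPKM in the controls and 4564 ± 156 with shCBX7, 80.0% of the control mean. For each complex, all 3 shCBX7 sums lay below all 3 control sums. In 5637 the sums stayed at 103.7% (complex I), 99.4% (II), 97.2% (III) and 98.1% (IV), and the total went from 1767 ± 44.2 to 1773 ± 38.5 FPKM. Only the complex III sums of that line did not overlap between arms.

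**Figure D2:**
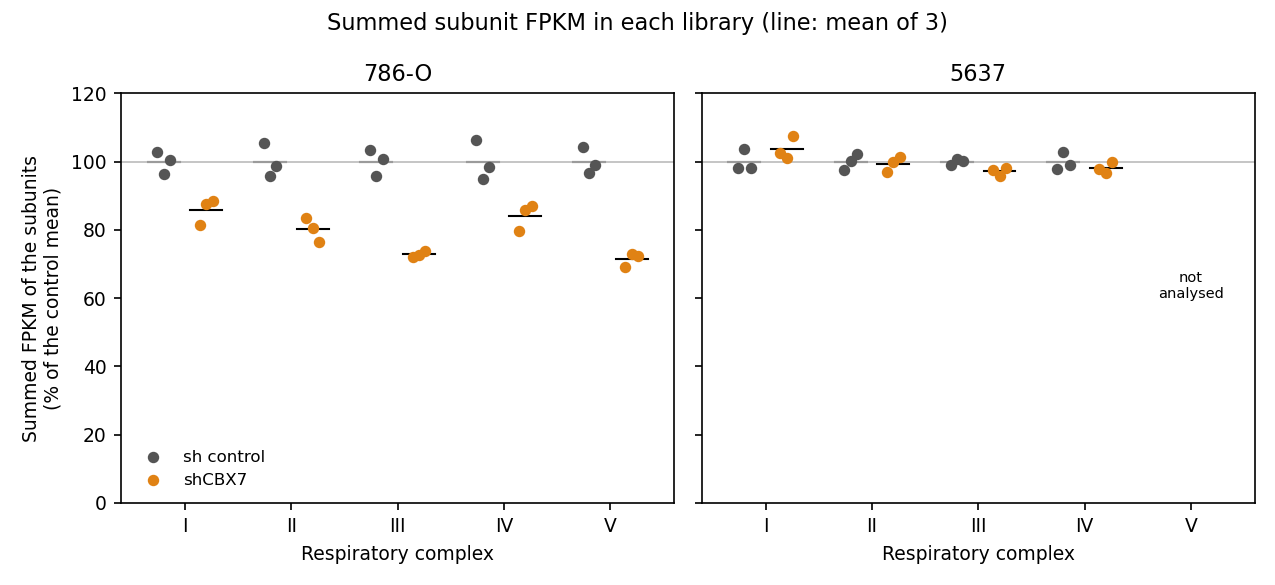
Summed FPKM of the listed subunits of each complex in every library, as a percentage of the control mean of that line. Grey points are sh control and orange points shCBX7 libraries, with a line at the mean of 3. In 786-O the orange means lie between 71.5% and 85.9%, and in 5637 between 97.2% and 103.7%.

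Complex II, succinate dehydrogenase, joins the citric acid cycle to the ubiquinone pool: SDHA binds the flavin, SDHB the iron-sulfur clusters, and SDHC and SDHD anchor both in the membrane. SDHD (ENSG00000204370, chr11:112086773-112120013, GRCh38) fell most of all members. Its 786-O control libraries held 22, 21.8 and 21.6 FPKM and the shCBX7 libraries 6.26, 5.96 and 5.44. The arms lay far apart, with shCBX7 at 27% of the control mean (log2 change -1.73, SE 0.056, limma adjusted p = 1.21e-06). Between 275 and 1132 reads per library stood behind these values. In 5637 SDHD went from 10.8, 10.1 and 9.84 to 8.07, 9.27 and 8.23 FPKM, again without overlap but only to 83.2% of control (-0.24, SE 0.055, limma adjusted p = 0.011). In each line, the exact two-sided permutation p for SDHD was 0.1, the smallest possible. Of its exonic bases 12.2% overlap other genes, AP002884.3 and TIMM8B.

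SDHC, the other anchor, moved the opposite way. In 786-O it stood at 8.82, 7.45 and 8.64 FPKM in controls and 10.4, 9.77 and 9.63 with shCBX7 (log2 change 0.23, limma adjusted p = 0.0253). In 5637 it went from 4.80, 4.78 and 4.88 to 5.67, 5.50 and 5.61 (0.18, limma adjusted p = 0.00163). The arms did not overlap in either line, and a difference in the change between lines was not called (0.054, SE 0.074, limma adjusted p = 0.567). The 786-O call was lost without sh control 2, shCBX7 1 or shCBX7 2 (limma adjusted p = 0.0529, 0.0838 and 0.0576).

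SDHA fell in 786-O, from 43.2, 40.6 and 42.6 to 32.9, 32 and 32 FPKM (-0.37, limma adjusted p = 0.000332). In 5637 it stood far lower in its table, at 2.19, 2.33 and 2.46 in controls and 2.10, 2.02 and 2.13 with shCBX7, and was not called (limma adjusted p = 0.0786). SDHB overlapped between arms in both lines, at 45.3 ± 4.12 against 46.1 ± 3.06 FPKM in 786-O and 20.9 ± 1.22 against 21.9 ± 0.884 in 5637. The 4 subunits of 1 enzyme thus ranged in 786-O from -1.73 to 0.23.

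**Figure D3:**
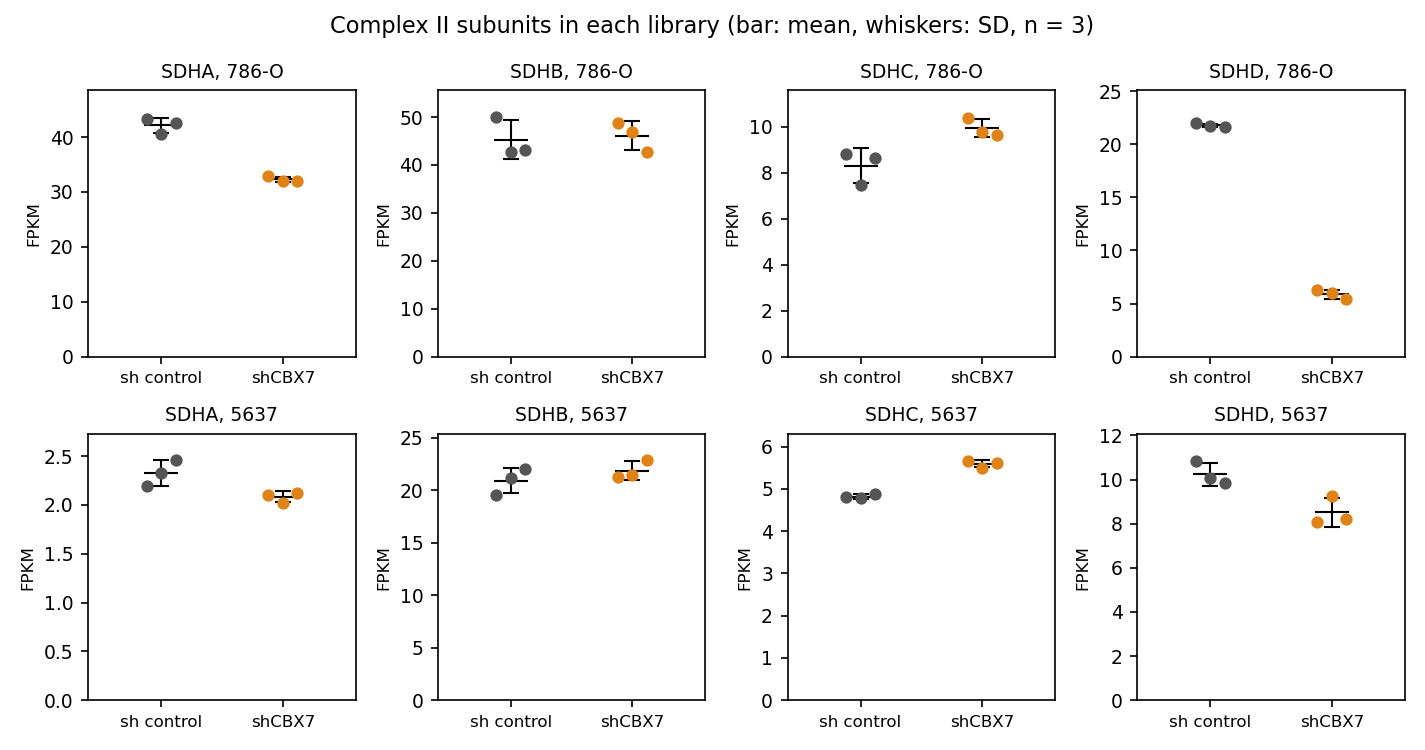
FPKM of the 4 complex II subunits in every library of 786-O (top row) and 5637 (bottom row). Points are libraries, horizontal bars the mean and whiskers the SD (n = 3), and every axis starts at 0. SDHD drops from about 21.8 to 5.89 FPKM in 786-O, SDHC lies higher with shCBX7 in both lines, and SDHB overlaps between arms.

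Complex III passes electrons from ubiquinol to cytochrome c. CYC1, its haem-bearing cytochrome c1, held 273, 219.7 and 235 FPKM in the 786-O controls and 151, 144 and 162 with shCBX7 (-0.66, SE 0.085, limma adjusted p = 0.000536). The core protein gene UQCRC1 went from 140.2, 121 and 134 to 87.5, 84 and 84.7 (-0.62, SE 0.06, limma adjusted p = 0.00013). For both, every shCBX7 library lay below every control. The small subunit UQCR10 went from 126, 122 and 133 to 89.2, 92.5 and 90.3 FPKM (-0.48), and UQCRB, next to the quinone site, from 27.4, 31.9 and 28.7 to 19.8, 23.1 and 23.3 (-0.40). UQCRC2, the second core protein, changed by -0.36, the hinge protein UQCRH by -0.31, the Rieske iron-sulfur protein UQCRFS1 by -0.28 and UQCRQ by -0.28. All of these were called. UQCR11 (-0.18, limma adjusted p = 0.148) and UQCRHL were not.

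UQCRHL is an intronless relative of UQCRH, so reads could be split between them in the authors' counting. It stood at 3.93, 3.75 and 4.20 FPKM in controls and 3.39, 3.49 and 3.63 with shCBX7, arms that did not overlap but missed the threshold (limma adjusted p = 0.0853). In 5637 UQCRB was the called member of complex III, at 15.7, 15.9 and 14.9 FPKM against 13.9, 13.8 and 15 (-0.12, limma adjusted p = 0.0402). There 1 shCBX7 library lay above the lowest control, and the call was lost without sh control 1 or 2 or without shCBX7 1 or 2. CYC1 (69.5 ± 0.511 against 69.4 ± 1.31 FPKM, n = 3) and UQCRC1 (64.9 ± 1.26 against 62.4 ± 0.933) were not called in 5637. No member of complexes III or IV was called higher there by limma (0 at an unadjusted p below 0.05, and 0 with voom).

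Complex V makes ATP in its F1 head, driven by the turning ring of c subunits in the membrane. Of the head, ATP5F1B held 437, 395 and 411 FPKM in the 786-O controls and 247, 239.8 and 229.8 with shCBX7 (-0.79, SE 0.053, limma adjusted p = 2.3e-05). ATP5F1A, the alpha subunit that alternates with beta, went from 37.2, 38.5 and 37.7 to 23.5, 25 and 22.1 (-0.66, SE 0.054, limma adjusted p = 5.49e-05). Both arms were tight and far from overlap. The gamma and delta subunits of the rotor fell as well, ATP5F1C by 0.30 and ATP5F1D by 0.56 on the log2 scale. ATP5F1E, the small epsilon subunit, overlapped between arms at 40.6, 45.7 and 48.4 against 40.9, 48.2 and 54 FPKM (limma adjusted p = 0.555). Thus 4 of the 5 head subunits fell.

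The 3 genes for the c ring encode the same mature protein, and all of them fell. ATP5MC1 stood at 74, 62.9 and 66.9 FPKM in controls and 40.4, 44.6 and 43.7 with shCBX7 (-0.65), ATP5MC3 at 55.1, 50.5 and 55.4 and 35, 35.3 and 35.4 (-0.59), and ATP5MC2 changed by -0.31. The arms of ATP5MC1 and ATP5MC3 did not overlap. Of the peripheral stalk, which holds the head still, ATP5PO (-0.55), ATP5PB (-0.37) and ATP5PD (-0.33) fell, while ATP5PF stood at 46.2, 48.4 and 46.9 against 40.9, 47.3 and 50.5 FPKM and was not called. Of the other membrane subunits ATP5MG (-0.55), ATP5MPL (-0.43), ATP5MF (-0.38) and ATP5MD (-0.19) fell. ATP5ME spread from 26.8, 27 and 23.7 in controls to 12.5, 19.4 and 24.8 with shCBX7 (limma adjusted p = 0.093), and 61.6% of its exonic bases overlap MYL5 on the opposite strand. Whether the authors counted by strand is not given in the sources used here.

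Complex IV reduces oxygen, around catalytic subunits made in the mitochondrion. COX4I1, its largest nuclear subunit, held 101, 93.5 and 99.97 FPKM in the 786-O controls and 73.4, 67.8 and 68.6 with shCBX7 (-0.48, SE 0.051, limma adjusted p = 0.000207). COX7C went from 71.1, 69.5 and 70.4 to 47.4, 50.6 and 52 (-0.49, SE 0.047, limma adjusted p = 0.000135). Every shCBX7 library lay below every control for both. COX7B (36.4, 35.8 and 39.7 against 27.8, 26.2 and 26.1 FPKM, -0.47), COX7A2 (113, 109.6 and 112 against 75.2, 85.2 and 85, -0.44) and COX6B1 (187, 158 and 178 against 123, 127 and 139, -0.42) fell likewise. NDUFA4, named for complex I but a subunit of complex IV, fell by 0.22 on the log2 scale.

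COX5A (-0.088), COX5B (-0.093), COX6A1 (-0.03), COX6C (0.052) and COX8A (-0.19) were not called in 786-O. COX8A had 1 high control, at 343, 265 and 257 FPKM against 225, 268 and 259.9. The paralogues with narrow tissue ranges were near 0 in 786-O: COX4I2, COX6A2 and COX7B2 were listed at 0 in every library, COX8C in all but 1, COX6B2 averaged 0.0544 FPKM in controls, COX7A1 0.0181 and NDUFA4L2 0.0201. In 5637 COX6B2 was present, at 4.62, 4.69 and 4.46 FPKM in controls and 4.96, 3.85 and 4.16 with shCBX7, without a called change.

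COX7A2L, a relative of COX7A2 that joins complexes III and IV into supercomplexes, was the called member of complex IV in 5637. It stood at 19.5, 20.2 and 19.1 FPKM in controls and 17, 18.2 and 18.4 with shCBX7 (-0.13, limma adjusted p = 0.0227), without overlap. In 786-O it overlapped between arms, at 23.2, 21.3 and 21.9 against 22.9, 23.8 and 23.2 (limma adjusted p = 0.24). The 5637 call was lost without sh control 1 or sh control 2 (limma adjusted p = 0.0508 and 0.0697).

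**Figure D4:**
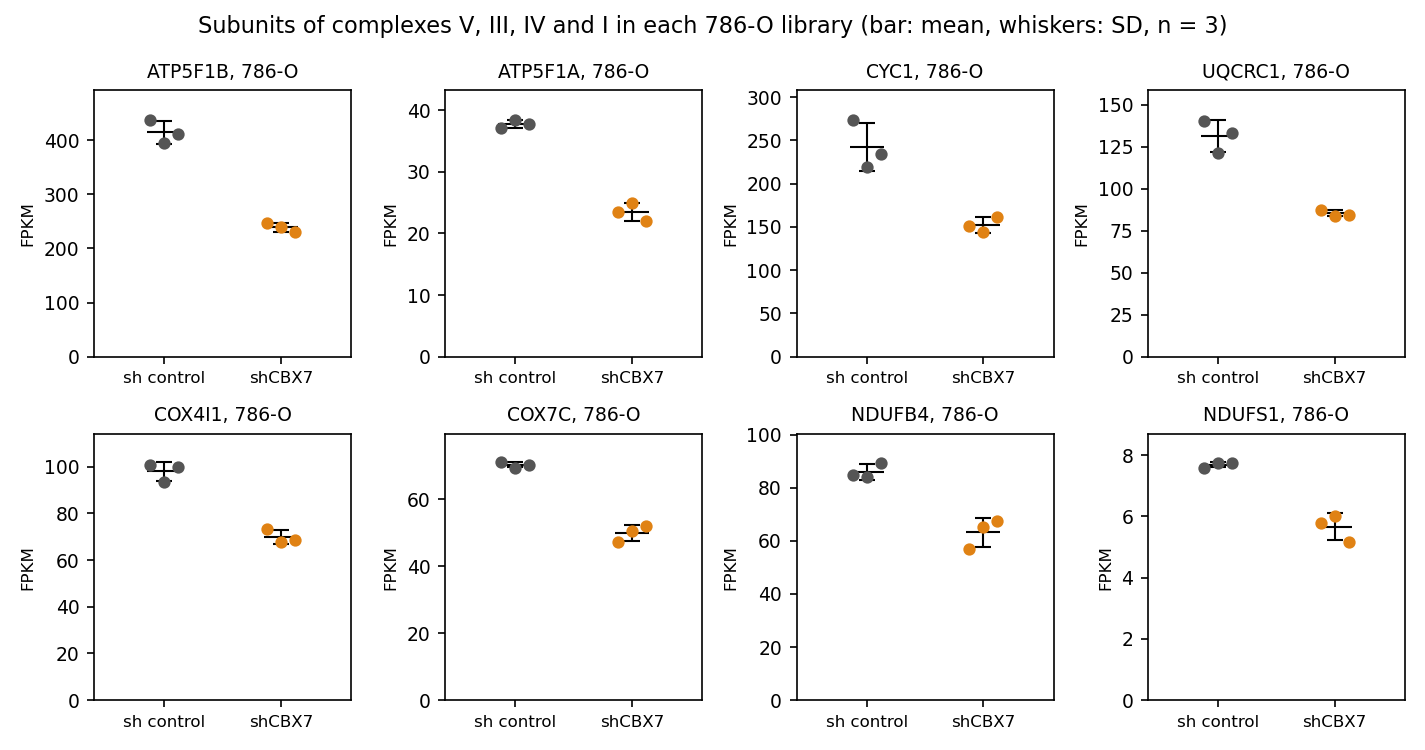
FPKM of 8 subunits of complexes V (ATP5F1B, ATP5F1A), III (CYC1, UQCRC1), IV (COX4I1, COX7C) and I (NDUFB4, NDUFS1) in every 786-O library. Points are libraries, horizontal bars the mean and whiskers the SD (n = 3), and every axis starts at 0. In all 8 panels the shCBX7 points lie below all controls.

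Complex I takes electrons from NADH through a chain of iron-sulfur clusters to ubiquinone, and 7 of its listed subunits form the conserved nuclear-encoded core. In 786-O 3 core subunits fell. NDUFS1, the largest iron-sulfur subunit, went from 7.59, 7.74 and 7.74 to 5.79, 6.02 and 5.18 FPKM (-0.38, SE 0.061, limma adjusted p = 0.00147). NDUFS3 went from 19.8, 16.7 and 18.1 to 14.1, 14.4 and 13.7 (-0.35), and NDUFV1, which binds NADH and the flavin, from 38.8, 33.9 and 36.5 to 30.2, 31.3 and 32.8 (-0.20, limma adjusted p = 0.0247). Their arms did not overlap, though the NDUFV1 call was lost without sh control 3, shCBX7 1 or shCBX7 2. NDUFS7 (5.66 ± 1.19 against 4.76 ± 0.412 FPKM) and NDUFS8 (44.3 ± 4.97 against 40.8 ± 1.43) overlapped and were not called.

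NDUFS1 was the single member called in both lines with opposite signs. In 5637 it rose from 6.31, 5.98 and 5.99 to 6.83, 6.65 and 6.75 FPKM (0.13, limma adjusted p = 0.0108), again without overlap. The difference between lines was -0.51 on the log2 scale (SE 0.064, limma interaction adjusted p = 4.02e-05). Other genes share 11.7% of its exonic bases.

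NDUFV2, the subunit beside NDUFV1, fell in 5637 from 2.33, 2.01 and 1.99 to 1.44, 1.08 and 1.11 FPKM, the members' largest fall there (-0.49, SE 0.076, limma adjusted p = 0.00216). It rested on 77 to 164 reads per library, and 28.4% of its exonic bases overlap AP005263.1. In 786-O it averaged 0.242 FPKM in controls and 0.103 with shCBX7, from 4 to 14 reads, too low to be tested. NDUFV1 fell slightly in 5637, from 39.9, 39.8 and 40.2 to 38.5, 36.8 and 38.6 (-0.073, limma adjusted p = 0.039), a call lost without sh control 1, 2 or 3 or without shCBX7 2. NDUFS3, NDUFS7 and NDUFS8 were not called in 5637 (0.0085, -0.096 and -0.05).

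Among the accessory subunits of complex I, 11 of 29 tested fell in 786-O (37.9%, against 26.2% of all genes tested there). As given above, the count for complex I as a whole came near the share of all genes when some single libraries were left out. NDUFB4 of the membrane arm went from 84.7, 84 and 89.5 to 57, 65.2 and 67.4 FPKM (-0.44, limma adjusted p = 0.00132). NDUFB3 went from 68.3, 68.5 and 70.3 to 50.2, 58.7 and 52.5 (-0.36) and NDUFB1 from 12.8, 12.9 and 15.4 to 7.85, 11.1 and 11.8 (-0.40, limma adjusted p = 0.0468). NDUFB1 kept its direction but lost its call in 5 of 6 fits that left out a library. Over all alternative settings, 9 ended its call. NDUFS5, the most abundant member, fell from 525, 529 and 523 to 381, 434 and 432 FPKM (-0.34), and NDUFB7 from 407, 322 and 350.3 to 307, 292 and 296 (-0.26, a call lost without sh control 3 or without any 1 of the shCBX7 libraries). NDUFA10 (-0.33), NDUFB11 (-0.28), NDUFA12 (-0.26), NDUFA2 (-0.25), NDUFA1 (-0.24) and NDUFA6 (-0.17) make up the rest. Of the exonic bases of NDUFB11 44.85% overlap RBM10, and of those of NDUFA1 44.52% overlap RNF113A, both on the opposite strand. The accessory subunits without a call ranged from -0.18 (NDUFB8) to 0.19 (NDUFA3).

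In 5637 the accessory subunits gave 5 rises and 1 fall among 27 tested (18.5% and 3.7%, against 24.4% and 20.2% of all genes tested). Both shares lay under those of all genes. NDUFA8, a twin-cysteine protein of the intermembrane space face, went from 47.9, 50.2 and 53.8 to 66.2, 61.7 and 62.8 FPKM, the members' largest rise in that line (0.32, SE 0.045, limma adjusted p = 0.00148). NDUFC2, of the membrane arm, went from 2.72, 3.05 and 3.12 to 3.87, 3.80 and 3.85 (0.29, SE 0.044, limma adjusted p = 0.00211). Neither overlapped between arms, and in 786-O neither was called (0.011 and -0.052). NDUFS6 (30.4 ± 2.39 to 34.6 ± 1.24 FPKM, 0.18), NDUFB6 (21.8 ± 0.916 to 24.4 ± 1.39, 0.15) and NDUFV3 (4.06 ± 0.0659 to 4.37 ± 0.0915, 0.087) rose by less. NDUFB4 fell from 54.5, 59.1 and 53.1 to 51.2, 49.5 and 51.2 (-0.13, limma adjusted p = 0.0344). The calls of NDUFS6, NDUFB6, NDUFV3 and NDUFB4 were each lost when some single library was left out: for NDUFS6 sh control 1 or 3 or shCBX7 1 or 3, for NDUFB6 sh control 1 or 3 or shCBX7 2 or 3, for NDUFV3 any of the 6, and for NDUFB4 sh control 1 or any shCBX7 library. The 25 complex I subunits without a call in 5637 ranged from -0.13 (NDUFB8) to 0.22 (NDUFAB1).

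The change was compared between lines in 1 limma model of the 12 libraries, by its line-by-arm interaction. Of 59 members tested in both lines, the change was lower in 786-O for 29 and higher for 2, COX7A2L among them. Over 12777 genes tested, 29% were called lower and 24.3% higher. By complex, it was lower for 8 of 10 in complex III, 6 of 12 in complex IV, 13 of 33 in complex I and 2 of 4 in complex II. Wide gaps were those of SDHD (-1.49, SE 0.08, limma adjusted p = 5.22e-08), CYC1 (-0.66, limma adjusted p = 0.000121) and UQCRC1 (-0.56, limma adjusted p = 2.25e-05). Of 25 members called in 786-O but not in 5637, 23 had a called difference. SDHC, SDHD, NDUFB4, NDUFV1 and UQCRB were called in the same direction in both lines. CBX7 itself stood at 61% of the control mean in 786-O and at 83.3% in 5637, so line and depth of silencing cannot be told apart. The 2 lines had separate controls, and the simulated recovery of small changes was lower in 786-O (48% of genes changed 1.25-fold) than in 5637 (76%). Those simulations changed far fewer genes than were called in the data.

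**Figure D5:**
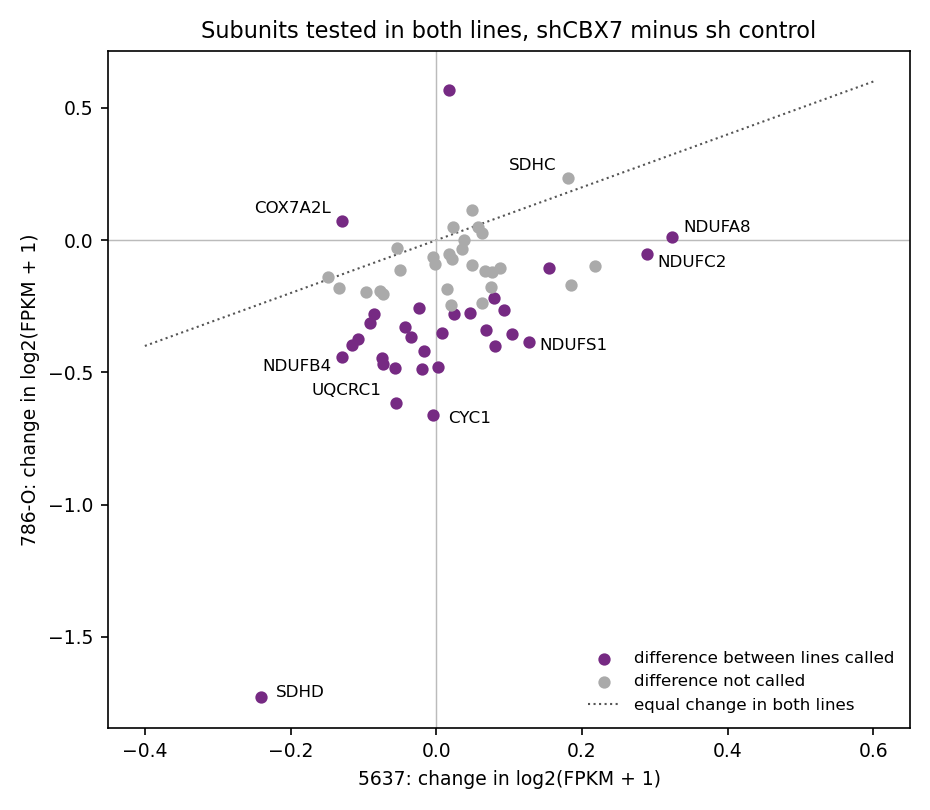
Change in log2(FPKM + 1), shCBX7 minus sh control, in 5637 (horizontal) and 786-O (vertical) for the 59 subunits tested in both lines. Purple points have a called difference between lines, and the dotted line marks equal change. Of the points, 50 lie below 0 in 786-O and 26 lie below 0 in 5637, with SDHD at -1.73 against -0.24 farthest out.

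Some members were too low to test: 12 in 786-O and 10 in 5637 had a mean under 0.5 FPKM. The readthrough genes NDUFC2-KCTD14 and ATP5MF-PTCD1, and ATP5MGL, a close relative of ATP5MG, stood at 0 wherever they were listed. NDUFA6 was listed at 0 in all 6 libraries of 5637, beside 59.9, 62.8 and 60.6 FPKM in the 786-O controls and 50.9, 55.3 and 56.5 with shCBX7. NDUFA3 averaged 0.157 FPKM in the 5637 controls and 19.3 in those of 786-O. NDUFA7 stayed at 0.418 and 0.431, and NDUFA13 at 0.881 and 0.664. Levels across the tables are not on 1 scale. How reads were counted for the 5637 table is not given in the sources used here, so a listed 0 need not mean that a gene was silent. Exons of other genes covered at least 1 base in 49 of the 90 members.

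The 13 protein-coding messages of the mitochondrial genome are partners of these subunits. In 786-O 3 of 13 were called, all lower (23.1%, near the 26.2% of all genes tested there), and the median log2 change was -0.14. The called ones were MT-ND5 (519 ± 58.4 to 389 ± 6.83 FPKM, -0.41), MT-ND6 (-0.36) and MT-CO1 (-0.20). They were not analysed here in 5637.

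Assembly factors, which build the complexes but do not stay in them, numbered 51. In 786-O 16 of 48 tested fell and 6 rose (33.3% and 12.5%, against 26.2% and 24.7% of all genes tested), with a median of -0.079. NDUFAF3, a complex I assembly factor, went from 59.2 ± 5.59 to 24.5 ± 1.28 FPKM (-1.24), and FOXRED1 (-0.41), TACO1 (-0.64), a translation activator of MT-CO1, and SCO1 (-0.39), a copper chaperone of complex IV, fell too. In 5637 15 of 48 rose and 6 fell (31.3% and 12.5%, against 24.4% and 20.2% of all genes), with a median of 0.061. TIMMDC1 went from 10.2 ± 0.33 to 14.5 ± 0.40 FPKM (0.47), followed by ACAD9 (0.29), COA7 (0.35) and COA4 (0.22).

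Regulators of mitochondrial biogenesis gave 9 falls and 2 rises of 19 tested in 786-O (47.4% and 10.5%, against 26.2% and 24.7% of all genes), with a median of -0.14. PPRC1, a coactivator related to PGC-1alpha, went from 6.56 ± 0.57 to 2.77 ± 0.10 FPKM (-1.0), and SLIRP (-0.68), SSBP1 (-0.46) and NRF1 (-0.41) fell. NRF1, whose letters were searched in the promoters, went from 5.02 ± 0.32 to 3.54 ± 0.18 FPKM. Its part in the members' changes was not tested. In 5637 5 of 21 rose, 23.8% and so near the 24.4% of all genes, and 2 fell (9.52% against 20.2%), with a median of 0.026. TWNK (0.29), MTERF1 (0.26) and GABPB1 (0.18) rose and YY1 (-0.12) fell.

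Electron feeders, ubiquinone synthesis genes and carriers gave 14 falls and 3 rises of 26 tested in 786-O (53.8% and 11.5%, against 26.2% and 24.7% of all genes), with a median of -0.24. SLC25A3, the phosphate carrier that supplies ATP synthase, went from 61.2 ± 0.50 to 35.0 ± 1.3 FPKM (-0.79), AIFM1 changed by -0.74 and GPD2, the mitochondrial glycerol phosphate dehydrogenase, by -1.0. SQOR, which passes electrons from sulfide to ubiquinone, rose from 18.0 ± 0.64 to 30.7 ± 0.93 FPKM (0.74). In 5637 8 of 23 rose and 5 fell (34.8% and 21.7%, against 24.4% and 20.2% of all genes), with a median of 0.086. CYCS, cytochrome c, went from 28.1 ± 0.69 to 36.4 ± 1.6 FPKM (0.36), HIGD1A changed by 0.30, COQ5 by 0.24 and AIFM1 by 0.21, opposite to its change in 786-O.

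Some markers of cell identity were also called. In 786-O 3 of 6 tested renal markers fell, PAX8 (-0.31) and CDH16 (-0.62) among them, and VCAM1 rose (0.27). Of all genes tested there, 26.2% were called lower and 24.7% higher. In 5637 5 of 6 basal urothelial markers rose, KRT17 by 0.59, KRT6A by 0.52 and KRT5 by 0.48, and CD44 fell by 0.13 on the log2 scale. Of all genes tested in that line, 24.4% were called higher and 20.2% lower. With so many genes called, counts in lists this short say little. Of the urothelial markers, PPARG rose in 786-O (0.76) and GATA3 fell in 5637 (-0.16). Of the leukocyte markers 3 were tested per line: LAPTM5 fell in both (-1.03 in 786-O and -0.21 in 5637), CORO1A rose in 5637 (0.26), and CD14 was called in neither. LUM (0.50) was the tested fibroblast marker in 786-O, and COL1A1 (-0.20) in 5637. Of the endothelial markers ESAM fell in 5637 (-0.26), and none reached 0.5 FPKM in 786-O. Their part in the subunits' changes was not tested.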

How the data were processed

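Each line has its own table of FPKM, a value per gene in every library, as the authors deposited it. Aligner, counter and strand setting: not given in the sources used here. For these human samples the submitters' processing notes list mm10, a mouse build. The gene lengths of all 90 members in the 786-O table equal their GENCODE 29 exon lengths (GRCh38). Libraries were made with a directional kit, per the labels' protocols. Groups follow the titles, except for 2 of the 3 5637 controls: their titles name the cells by the next numbers up, and all 3 control titles end in the same replicate number, so they were grouped by the cell line and genotype labels. The 5637 control columns could be tied to their group only. Column names write the silenced arm of both lines, and the 5637 controls, with the letters si, whereas the titles write sh.

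Values were tested as log2(FPKM + 1), so a fold change of a low gene is understated. Genes whose 6 libraries in a line averaged 0.5 FPKM or more were fitted with limma 3.58.1 (R 4.3.3, mean-variance trend), with Benjamini-Hochberg adjustment over all tested genes. Whole reads (tolerance 0.01) were recovered for 100% of genes in 786-O and 93.9% in 5637. They served for depth and for voom, which made 7247 calls among 13220 genes (786-O) and 5807 among 11618 (5637). Other alternatives were quantile normalization, median centring, a pseudocount of 0.1, no filter, a mean of at least 5 FPKM, no trend, each library left out and the replicate number as a block. On simulated data, limma recovered 48%, 90%, 98% and 100% of genes changed 1.25-, 1.5-, 2- and 4-fold in 786-O (13198 genes), and 76%, 98%, 98% and 100% in 5637 (12128 genes). The simulation changed only a small share of the genes and gave all of them a common spread between libraries. In the data many more genes were called, so these rates need not hold for the fits reported here.

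Members and lists (assembly factors, biogenesis regulators, mitochondrial messages, feeders and carriers, and renal, basal urothelial, urothelial, leukocyte, endothelial and fibroblast markers) were chosen with earlier results of these data known. Named are all members called in 5637, up to 4 called rises and falls per complex in 786-O, the paralogue pairs, the complex I core, members whose signs differ between lines with a called difference, the 5 highest levels per line, and up to 4 members of each list by smallest p. Some genes that the rule picks are left out of the text. Other members named beside their complex's count were chosen after their values were seen.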

Additional observations from a re-analysis of the deposited data

Results flagged for a closer look

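The change under shCBX7 differed between the lines, by the limma interaction term, for 31 of the 59 subunits tested in both. Values are the log2 change in 786-O minus that in 5637. In complex I the differences were -0.512 for NDUFS1, -0.481 for NDUFB1, -0.459 for NDUFB3, -0.409 for NDUFS5, -0.358 for NDUFS3, -0.356 for NDUFB7, -0.34 for NDUFC2 and -0.314 for NDUFB4. They were -0.313 for NDUFA8, -0.285 for NDUFA10, -0.261 for NDUFB6, -0.234 for NDUFA12 and -0.194 for NDUFB11. RBM10 overlaps 44.85% of the exonic bases of NDUFB11 on the opposite strand and itself differed by -1.15. Its part in the NDUFB11 value was not tested. In complex II SDHD differed by -1.49 and SDHA by -0.266. In complex III the differences were -0.658 for CYC1, -0.561 for UQCRC1, -0.426 for UQCR10, -0.331 for UQCRC2, -0.323 for UQCRQ, -0.305 for UQCRFS1, -0.28 for UQCRB and -0.223 for UQCRH. In complex IV they were -0.483 for COX4I1, -0.466 for COX7C, -0.403 for COX6B1, -0.393 for COX7B, -0.371 for COX7A2 and -0.299 for NDUFA4, and 0.203 for COX7A2L. NDUFA8, NDUFC2 and NDUFB6 rose in 5637 (0.32, 0.29 and 0.15) and were not called in 786-O (0.011, -0.052 and -0.11). Over all genes tested, 29% differed in the lower and 24.3% in the higher direction, and the 2 tables were normalized separately. As CBX7 stood at 61% of the control mean in 786-O and at 83.3% in 5637, line and depth of silencing cannot be told apart.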

How the results depend on the processing

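The count of 44 falling members in 786-O stayed between 37 and 43 with 1 library left out, and the difference between lines was lower in 786-O for 26 to 32 members and higher for 2. Without a filter on low values, 1 member rose in 786-O, 8 of complex I fell, 0 of complex II rose, and the complex IV median was -0.091. In 5637 that setting gave 4 rises and 2 falls, with 3 rises and 1 fall in complex I and 0 falls in complexes III and IV. More genes were then tested. Without the mean-variance trend 3 members fell in 5637, 1 of complex I and 0 of complex III. Quantile normalization, median centring and voom each gave 2 falls in complex III there. The complex II median in 5637 was 0.063 at a mean of at least 5 FPKM and 0.065 with voom, against -0.022, and both tested fewer of its genes (voom 3 of 4).

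With 1 library left out in 786-O, rises ranged from 1 to 2, complex I falls from 8 to 12 and complex II rises from 0 to 1. The medians ranged from -0.21 to -0.13 (complex II), -0.25 to -0.15 (IV) and -0.49 to -0.36 (V). In 5637 rises ranged from 4 to 7 and falls from 2 to 6. Complex I gave 3 to 6 rises and 1 to 2 falls, complex III 0 to 1 falls and complex IV 0 to 2, and the complex II median ran from -0.059 to 0.0096. Of 922 values for 69 named results under the alternatives, 0 reversed a call, 63 lost a call and 7 gained a call. Results without a call could change sign: COX4I1 in 5637 ran from -0.018 to 0.036 with 1 library left out. The cause was not tested.

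The replicate block was possible in 786-O only. Same-numbered libraries deviated together with correlations of 0.083, 0.077 and 0.057, each library correlating best with its own number. This is a hint of weak pairing from the data, not from the design. All 3 lay below the 0.1 required here to treat numbers as pairs. The block gave 3261 higher and 3462 lower genes against 3271 and 3465 without it, and changed no call of a named member. The depth of 4 to 14 reads left NDUFV2 untested in 786-O.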

Other observations

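The libraries of an arm did not take turns evenly among the members. In 786-O sh control 1 held the highest of the 3 control values for 43 of 78 tested members and sh control 2 the lowest for 45. Library shCBX7 1 held the lowest shCBX7 value for 48 of 78. In 5637 shCBX7 3 held the highest value of its arm for 34 of 61 members and shCBX7 2 the lowest for 34. The same counts were not made over all genes, so the pattern is not shown to be particular to the members.

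NDUFB8, a complex I accessory subunit, spread more than most within an arm of 786-O, at 7.07, 5.62 and 4.82 FPKM in controls and 3.09, 6.09 and 6.34 with shCBX7. ATP5ME and NDUFB1 had their lowest value in the same library, shCBX7 1. Other genes overlap 48.5% of the exonic bases of NDUFB8. In 5637 NDUFAB1, the mitochondrial acyl carrier protein, stood at 24.5, 24.4 and 18.5 FPKM in controls and 25.8, 25.8 and 26.7 with shCBX7, a change of 0.22 that missed the threshold (limma adjusted p = 0.111) with 1 low control.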
